A study of Mus musculus with 9 samples.

Results

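The genes described here encode transcription factors of the AP-1 and Egr families, some of which are among the first genes that cells switch on after a stimulus. They are Fos, Fosb, Fosl1 and Fosl2 of the Fos family, Jun, Junb and Jund of the Jun family, Atf3, and Egr1 and Egr2, and they were chosen by symbol: 10 genes of the 56748 in the deposited table. The libraries were made from total RNA of wild-type primary basal stem cells of the mouse trachea, the progenitors of the airway lining, with no treatment other than culture at the air-liquid interface, in which cells on a membrane are fed from below and meet air above. Each of days 1, 3 and 5 had 3 libraries, which the submitters tie to proliferation, stratification and the choice of luminal fates. Age and sex of the animals, and whether replicates came from separate animals or cultures, are not given in the sources used, so each p-value measures only the spread between these libraries, which may be technical.

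Fos proteins cannot pair with each other and bind DNA as dimers, chiefly with a Jun protein, while Jun proteins also pair among themselves and with ATF proteins. The dimers, known as AP-1, bind short palindromic sites in many promoters and enhancers. Fos and Egr1 are the textbook immediate early genes: growth factors, stress or wounding switch them on through MAP kinases, serum response factor (SRF) and CREB, without new protein synthesis, and their RNAs are short-lived. Egr proteins are zinc finger factors that bind GC-rich sites. In stratified epithelia AP-1 is known for its part in growth, wound repair and the squamous genes of the upper layers.

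The promoters of 5 of these genes, each with a letter match to a site of the factors above, are shown as examples. Of the 10 genes, 8 had a window in the RefSeq table of build GRCm38.p6, and Fosl1 and Egr1 had none. Each sequence is the 250 bases before the annotated start, 5′ to 3′ on the strand of the gene, with matches in capitals. The windows are Fos at chr12:85473640-85473889 (+), Fosb at chr7:19310046-19310295 (-), Jun at chr4:95052223-95052472 (-), Atf3 at chr1:191183334-191183583 (-) and the window 3 of 5 for Egr2 at chr10:67537619-67537868 (+).
Fos: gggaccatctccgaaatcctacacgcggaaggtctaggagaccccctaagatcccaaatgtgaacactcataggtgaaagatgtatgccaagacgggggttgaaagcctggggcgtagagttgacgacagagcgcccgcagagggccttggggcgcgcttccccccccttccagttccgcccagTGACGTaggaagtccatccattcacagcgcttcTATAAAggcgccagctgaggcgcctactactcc
Fosb: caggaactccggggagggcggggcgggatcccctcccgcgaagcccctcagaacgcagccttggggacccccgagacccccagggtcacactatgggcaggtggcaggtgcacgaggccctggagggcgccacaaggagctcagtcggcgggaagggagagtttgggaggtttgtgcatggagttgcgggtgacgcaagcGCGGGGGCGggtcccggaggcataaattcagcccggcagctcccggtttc
Jun: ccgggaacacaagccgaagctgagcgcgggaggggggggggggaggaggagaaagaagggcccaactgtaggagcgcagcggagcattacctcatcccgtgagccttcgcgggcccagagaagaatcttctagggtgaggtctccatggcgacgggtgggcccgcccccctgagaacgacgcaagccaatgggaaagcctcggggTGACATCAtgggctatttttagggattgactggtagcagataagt
Atf3: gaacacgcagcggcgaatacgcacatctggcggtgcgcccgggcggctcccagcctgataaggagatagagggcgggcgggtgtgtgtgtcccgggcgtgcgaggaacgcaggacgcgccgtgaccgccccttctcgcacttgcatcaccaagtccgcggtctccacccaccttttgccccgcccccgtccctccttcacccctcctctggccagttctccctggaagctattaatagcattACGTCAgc
Egr2: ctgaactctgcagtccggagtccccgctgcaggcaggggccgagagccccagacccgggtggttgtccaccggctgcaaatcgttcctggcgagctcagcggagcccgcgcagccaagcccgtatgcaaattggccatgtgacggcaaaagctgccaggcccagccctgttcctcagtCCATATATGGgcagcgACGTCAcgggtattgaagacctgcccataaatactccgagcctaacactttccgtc

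Capitals in Fos mark TGACGT, the core of the CREB site, which begins 66 bases before the start, and TATAAA 33 bases before it. In Fosb they mark GCGGGGGCG, a match to the Egr site GCGNGGGCG, 50 bases before the start. The Jun window holds TGACATCA, a match to the CRE-like TGACNTCA that Jun and ATF dimers bind, 45 bases before the start. In Atf3 the capitals are ACGTCA, the CREB core on the other strand, 8 bases before the start. The Egr2 window holds a CArG box, the SRF site, 72 bases before the start and ACGTCA 56 bases before it. Among the windows not shown, Fosl2 held GCGGGGGCG 79 bases before its start, Egr2 held a CArG box in window 2 and the same CArG box and ACGTCA in windows 4 and 5, and Junb, Jund and window 1 of Egr2 held no match. None of these windows held TGANTCA, the AP-1 site. All 6 motifs were searched on both strands after the windows had been read, and TGACGT lies within TGACNTCA where N is G. Over all 32851 windows of the table, 7.49% held TGACNTCA, 6.47% TGACGT, 6.75% TGANTCA, 1.47% a CArG box, 4.7% GCGNGGGCG and 12.4% TATAAA. A match describes letters, not a bound site.

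Depth fell with the day. Libraries held 26.5 to 35.1 M reads on day 1, 19.5 to 24.6 M on day 3 and 16.4 to 19.3 M on day 5. Levels are normalized counts, which are reads divided by the authors' size factor of the library, given as mean ± SD with n = 3 a day. All 5 basal markers were detected on every day. Krt5 was at 108199 ± 5696, 82486 ± 1709 and 38922 ± 5823 on days 1, 3 and 5, Krt14 at 38820 ± 5429, 9822 ± 663 and 11899 ± 2728, and Trp63 at 3811 ± 704, 1644 ± 155 and 2798 ± 472. Krt15 went the other way, at 62675 ± 3724, 302633 ± 29307 and 195601 ± 34885, as did Ngfr, at 359 ± 32.2, 1581 ± 110 and 1990 ± 178. The suprabasal keratins were highest on day 3, with Krt4 at 14272 ± 5143, 33514 ± 1338 and 9500 ± 1818 and Krt13 at 19014 ± 5611, 60955 ± 6808 and 6927 ± 2654. Ribosomal protein genes took 4.75 to 5.13%, 9.71 to 12% and 4.15 to 6.45% of normalized counts. The 6 fibroblast markers summed to 4.07 to 14.9, 4.02 to 8.88 and 103 to 130, and Dcn alone gave 112 ± 16.1 of the day 5 sum. The 5 leukocyte markers summed to 252 to 284, 2144 to 2216 and 63451 to 81614. Of that sum Lyz2, a lysozyme, gave 0.452 ± 0.783, 550 ± 120 and 70299 ± 9766. Cd68 was highest on day 3, at 259 ± 16.7, 1612 ± 80 and 163 ± 16.9, and so was Itgam, at 3.73 ± 0.388, 18.2 ± 5.76 and 5.58 ± 4.18. Ptprc was at 3.47 ± 0.535, 0 and 0.43 ± 0.745, and Tyrobp had no read in any library. The 3 endothelial markers summed to 2.71 to 6.06, 9.87 to 21.2 and 6.15 to 10.9, and the 2 smooth muscle markers to 7.47 to 11.5, 6.69 to 17.8 and 25.8 to 33.2. Y-linked genes summed to 3027 to 3253 on day 1, 300 to 348 on day 3 and 401 to 575 on day 5, and Xist ran at 1548 to 2018, 5416 to 6346 and 6116 to 8698, so day and the sex makeup of the source animals cannot be told apart. These values move with day beside every result that follows, and their part in it was not tested. In bulk libraries, fewer cells of a type and less RNA per cell cannot be told apart.

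By limma's F test of any change over time, all 10 genes passed, as did 91.4% of the 17338 tested. All 10 differed between day 1 and day 3, 8 of them higher and 2 lower on day 3. Fosl1 and Fosl2 were the 2 that fell. From day 3 to day 5, 4 genes rose (Jun, Junb, Egr1 and Egr2), 5 fell (Fosb, Fosl1, Fosl2, Jund and Atf3), and Fos did not pass the test. From day 1 to day 5, 7 rose, 2 fell and Atf3 did not pass. The days differed in most of the transcriptome, so these counts are read against the share of all tested genes that passed the same limma test at an adjusted p under 0.05, which was 73% for day 3 against day 1, 67.3% for day 5 against day 3 and 74.5% for day 5 against day 1. In the first comparison 36.1% of all genes were higher and 37% lower, in the next 34.8% and 32.4%, and in the last 36.7% and 37.7%. For 10 of the genes the libraries of days 1 and 3 did not overlap, against 77.3% of all genes, for 9 those of days 3 and 5 did not, against 71%, and for 10 those of days 1 and 5 did not, against 76.8%. The median log2 change of the 10 genes was 2.48, -0.02 and 1.82 in the 3 comparisons, where that of all genes was 0.00, 0.06 and -0.06. The median size of the change, sign aside, was 2.58, 1.61 and 2.43, beside 0.94, 0.75 and 1.02 over all genes.

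**Figure D1:**
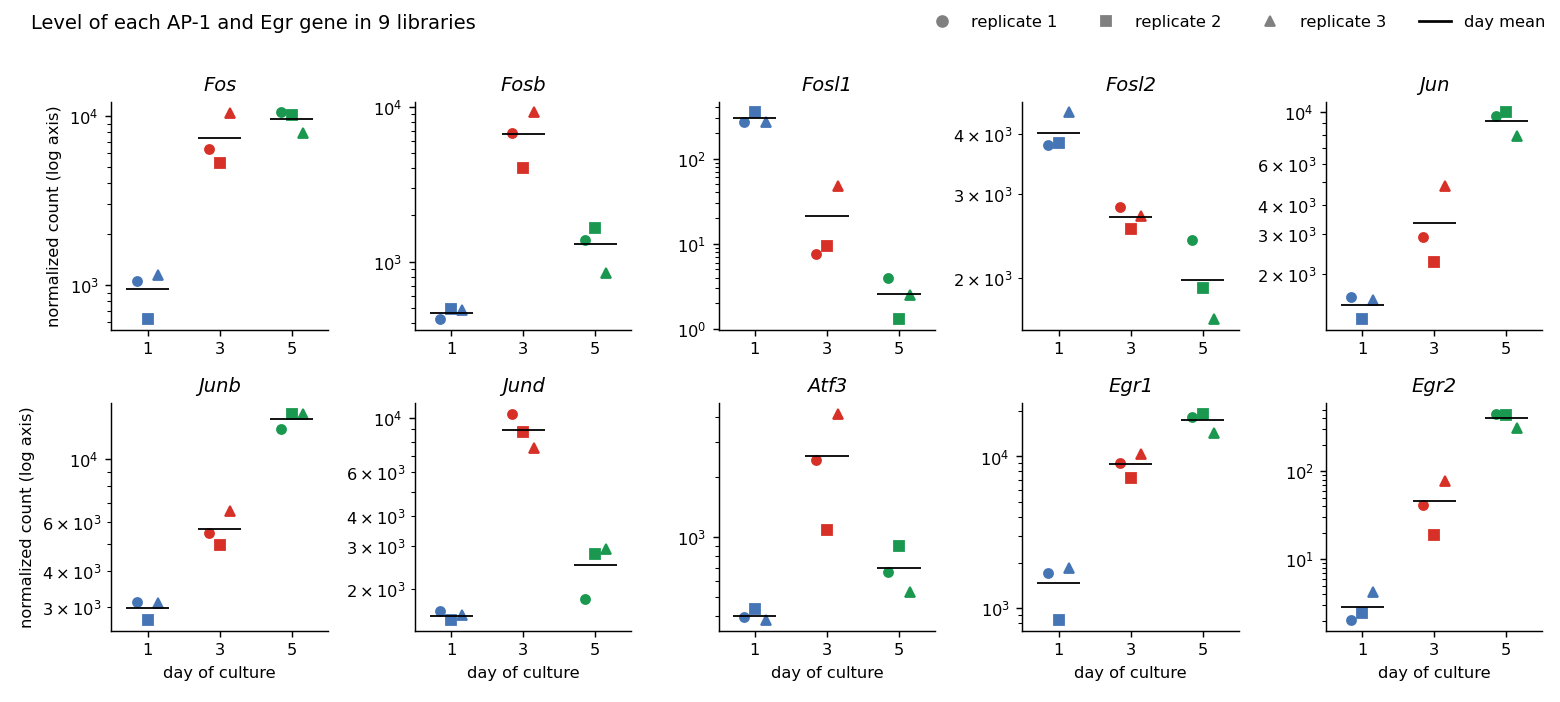
Normalized count (log axis, own scale for each gene) of the 10 genes in each library by day of culture, with marker shape for the replicate and a line at the mean of the day. Fosb, Jund and Atf3 are highest on day 3, Jun, Junb, Egr1 and Egr2 on day 5, and Fosl1 and Fosl2 on day 1.

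Fos, the founding member of its family, was at 1059, 626 and 1147 on day 1, at 6378, 5295 and 10441 on day 3 and at 10487, 10130 and 7970 on day 5. Every day 3 and day 5 library stood above every day 1 library, while those of days 3 and 5 overlapped. The means were 944 ± 279, 7371 ± 2713 and 9529 ± 1362. The log2 change was 2.95 (SE 0.27, adjusted p = 5e-06) from day 1 to day 3 and 0.42 (SE 0.27, adjusted p = 0.19) from day 3 to day 5. Without day 3 replicate 3, the highest of its day, the later change was 0.70 with an adjusted p of 0.028, and it also passed with quantile normalization (0.94, adjusted p = 0.015) and with library weights (0.69, adjusted p = 0.0051).

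Fosb, a close relative of Fos, peaked on day 3. It was at 424, 491 and 487 on day 1, at 6792, 4022 and 9184 on day 3, and at 1373, 1656 and 844 on day 5. Day 3 stood above both other days in every library, and day 5 stayed above day 1. The mean rose 14.3-fold from 467 ± 37.6 to 6666 ± 2583 and then came down to 1291 ± 412. The log2 change was 3.76 (SE 0.29, adjusted p = 2e-06) in the step to day 3 and -2.34 (SE 0.29, adjusted p = 6.4e-05) in the step to day 5. Day 5 remained above day 1 by 1.41 (SE 0.29, adjusted p = 0.0012).

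Fosl1, which encodes the Fos protein Fra-1, was nearly lost. It was at 273, 349 and 272 on day 1, at 7.49, 9.37 and 47.4 on day 3, and at 3.96, 1.29 and 2.46 on day 5. No library of one day reached another day, and day 3 replicate 3 stood well above the other two of its day. These levels rest on 1272, 61 and 7 reads over the 3 libraries of days 1, 3 and 5. Day 1 exceeded day 5 by a factor of 109, with a 95% exact interval of 52.8 to 272 that covers counting error only, and day 3 by a factor of 12.3 (9.54 to 16.2). On the log2(normalized count + 1) scale, which understates the change of a gene this low, the step to day 3 was -4.20 (SE 0.58, adjusted p = 8e-05) and the step to day 5 was -2.25 (SE 0.58, adjusted p = 0.0061). Without day 3 replicate 3 the steps were -4.98 and -1.46, with adjusted p-values of 5.2e-06 and 0.0069. The gene is uncertain, because 57.2% of its exonic bases, and 100% of the last 500, lie under Ccdc85b on the opposite strand in the GRCm38 annotation, and the sources used here do not say whether counting used strand. Ccdc85b had mean levels of 500, 1213 and 396 on the 3 days.

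Fosl2, which encodes Fra-2, declined by small steps. It was at 3802, 3841 and 4447 on day 1, at 2824, 2541 and 2699 on day 3, and at 2404, 1908 and 1640 on day 5. No library of one day overlapped another day. Its means were 4030 ± 361, 2688 ± 142 and 1984 ± 387, with log2 changes of -0.58 (SE 0.13, adjusted p = 0.0024) and -0.45 (SE 0.13, adjusted p = 0.012). With quantile normalization the later step was -0.14 and no longer passed (adjusted p = 0.43).

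Jun, the classical partner of Fos in AP-1, rose in both steps. It was at 1599, 1281 and 1550 on day 1, at 2908, 2265 and 4822 on day 3, and at 9651, 9973 and 7860 on day 5. Each day stood wholly above the one before. The means were 1477 ± 171, 3332 ± 1330 and 9161 ± 1138. The log2 changes were 1.11 (SE 0.23, adjusted p = 0.0013) and 1.52 (SE 0.23, adjusted p = 0.00022). After removal of the trend of the values on transcript length and GC content within each library (the length and GC correction), the step to day 3 was 0.50 and did not pass (adjusted p = 0.069).

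Junb, a Jun protein that can restrain Jun, was the most abundant Jun family RNA on days 1 and 5 per kilobase. It was at 3106, 2677 and 3099 on day 1, at 5448, 4958 and 6558 on day 3, and at 12838, 14516 and 14422 on day 5. The days did not overlap. The means were 2961 ± 246, 5655 ± 820 and 13926 ± 943, with log2 changes of 0.93 (SE 0.12, adjusted p = 4.7e-05) and 1.31 (SE 0.12, adjusted p = 7.5e-06). After the length and GC correction, the step to day 3 came to 0.01 (adjusted p = 0.93), while the step to day 5 was 1.21. Of its last 500 bases, 34.6% lie under Prdx2 on the opposite strand, which had mean levels of 2511, 7487 and 4213.

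Jund, a Jun protein found in most resting cells, peaked on day 3 like Fosb. It was at 1631, 1495 and 1572 on day 1, at 10426, 8732 and 7554 on day 3, and at 1829, 2797 and 2913 on day 5. The day 3 libraries stood far above the rest. The means were 1566 ± 68.2, 8904 ± 1444 and 2513 ± 595. The log2 changes were 2.49 (SE 0.17, adjusted p = 1.2e-06) and -1.84 (SE 0.17, adjusted p = 9.4e-06). Day 5 was above day 1 by 0.65 (SE 0.17, adjusted p = 0.0059), and below it by the other scaling: after the length and GC correction the change was -0.54 with an adjusted p of 0.0038. The peak on day 3 kept its direction there, at 1.54 and -2.08. Jund has 1 exon of 1668 bases with 67.1% GC, the shortest and most GC-rich of the 10 genes. Over all genes the median change to day 3 was 0.48 in the shortest of 5 length bins and -0.68 in the longest, and the median change to day 5 was -0.71 and 0.34. The antisense gene Gm11175, which covers 52.6% of its exon, had no read.

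Atf3, a stress-induced factor that pairs with Jun proteins, also peaked on day 3, with a wide spread. It was at 397, 434 and 382 on day 1, at 2429, 1082 and 4173 on day 3, and at 671, 905 and 529 on day 5. Days did not overlap, though day 3 replicate 2 was little above the highest day 5 library. The means were 404 ± 26.9, 2561 ± 1550 and 702 ± 190. The log2 changes were 2.46 (SE 0.39, adjusted p = 0.00019) and -1.70 (SE 0.39, adjusted p = 0.003). Between days 1 and 5 the difference was 0.76 (SE 0.39, adjusted p = 0.097). That difference passed without day 3 replicate 2 (adjusted p = 0.013), without day 3 replicate 3 (0.032) and in a fit of days 1 and 5 alone (0.0065), at the same 0.76, and at 1.08 with library weights (0.0093).

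Egr1, the zinc finger factor induced together with Fos in many cells, was at 1721, 832 and 1836 on day 1, at 9007, 7230 and 10391 on day 3 and at 18262, 19182 and 14373 on day 5. Each day stood above the one before without overlap. The means were 1463 ± 549, 8876 ± 1585 and 17273 ± 2553. The log2 changes were 2.67 (SE 0.27, adjusted p = 9.1e-06) and 0.97 (SE 0.27, adjusted p = 0.0091).

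Egr2, known for its role in Schwann cell myelination and hindbrain patterning, went from near the limit of detection to a moderate level. It was at 2.03, 2.49 and 4.24 on day 1, at 41.2, 18.7 and 77.0 on day 3, and at 451, 436 and 306 on day 5. The days were wholly separate. These levels rest on 13, 125 and 1042 reads. The ratio of day 5 to day 1 was 134, with a 95% exact interval of 77.8 to 252, and that of day 3 to day 1 was 16.3 (9.16 to 31.4), both for counting error only. The log2 changes were 3.40 (SE 0.45, adjusted p = 5.7e-05) and 3.29 (SE 0.45, adjusted p = 0.00012).

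Whether the second step differed from the first was tested in the same limma fit, as the change from day 3 to day 5 less the change from day 1 to day 3. It was negative for 5 genes and positive for none that passed, where 70.7% of all genes passed, 36.8% as positive and 33.9% as negative. Fosb differed by -6.10 (SE 0.51, adjusted p = 9.6e-06), Jund by -4.34 (SE 0.30, adjusted p = 4.4e-06) and Atf3 by -4.15 (SE 0.67, adjusted p = 0.0003), the genes that turned down after day 3. Fos differed by -2.53 (SE 0.47, adjusted p = 0.00071) and Egr1 by -1.70 (SE 0.47, adjusted p = 0.0075), both of which rose more to day 3 than after it on the log2 scale. For Egr1 the value was -1.08 and did not pass with quantile normalization (adjusted p = 0.087). For Fosl2 it was 0.13 (SE 0.23, adjusted p = 0.63), and -0.56 after the length and GC correction, which passed in the other direction (adjusted p = 0.0072). For Egr2 the difference was -0.11 (SE 0.78, adjusted p = 0.91) and for Jun 0.42 (SE 0.40, adjusted p = 0.36). Without day 3 replicate 3 the difference passed as positive in 3 further genes, at 3.52 in Fosl1 (adjusted p = 0.0013), 1.02 in Jun (0.0089) and 0.60 in Junb (0.024).

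**Figure D2:**
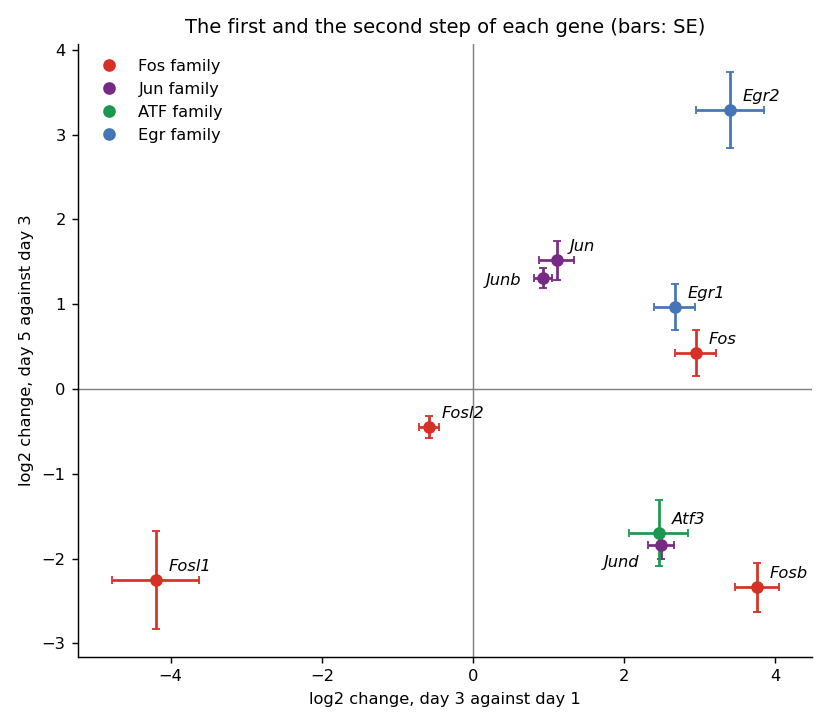
Log2 change from day 3 to day 5 against log2 change from day 1 to day 3 for the 10 genes, coloured by family, with bars of 1 standard error from the limma fit. Fosb, Jund and Atf3 lie at lower right (up, then down), Jun, Junb, Egr1 and Egr2 at upper right, and Fosl1 and Fosl2 at lower left; Fos lies at 2.95 and 0.42.

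Levels of different genes were compared per kilobase of exon, as normalized counts per kilobase. On day 1 the order was Junb (1287 ± 107), Jund (939 ± 40.9), Jun (463 ± 53.6), Fosl2 (416 ± 37.3), Fos (401 ± 119), Egr1 (326 ± 123), Atf3 (188 ± 12.5), Fosl1 (147 ± 21.6), Fosb (74.8 ± 6.02) and Egr2 (0.86 ± 0.343). The libraries of neighbours overlapped from Jun through Fosl2, Fos and Egr1 to Atf3, and the others were separate. On day 3 Jund led at 5338 ± 865, ahead of Fos (3134 ± 1154), Junb (2458 ± 356), Egr1 (1979 ± 353), Atf3 (1189 ± 720), Fosb (1068 ± 414) and Jun (1045 ± 417), of which each neighbouring pair from Fos to Jun overlapped. Fosl2 followed at 278 ± 14.6, apart from both neighbours, and Egr2 (13.4 ± 8.64) and Fosl1 (10.5 ± 11.1) overlapped at the end. On day 5 Junb led again at 6052 ± 410, followed by Fos (4051 ± 579) and Egr1 (3852 ± 569), which overlapped, and by Jun (2873 ± 357) and Jund (1507 ± 357). Atf3 (326 ± 88.1), Fosb (207 ± 66.0) and Fosl2 (205 ± 40) formed a run of overlapping neighbours, and Egr2 (117 ± 23.4) and Fosl1 (1.27 ± 0.659) closed the order. Lengths came from another build than the one aligned to, so an order between genes of near levels depends on the transcript model.

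The makeup of the Fos family turned over. On day 1, Fosl2 held 40.2% ± 2.98 of the summed level per kilobase, Fos 38.1% ± 7.76, Fosl1 14.4% ± 3.85 and Fosb 7.28% ± 1.16. On day 3, Fos held 69.6% ± 2.95 and Fosb 23.5% ± 3.10, while Fosl2 was at 6.64% ± 1.95 and Fosl1 at 0.204% ± 0.151. On day 5, Fos alone held 90.8% ± 0.78, with Fosl2 at 4.59% ± 0.453 and Fosb at 4.56% ± 0.954. The sum itself went from 1039 ± 123 to 4490 ± 1563 and 4464 ± 672 normalized counts per kilobase. In the Jun family Junb led on days 1 and 5 with 47.8% ± 0.643 and 58.0% ± 1.59, and Jund on day 3 with 60.4% ± 8.20. Jun held 17.2% ± 0.756, 11.8% ± 4.54 and 27.6% ± 3.86. The Jun family sum went from 2689 ± 199 to 8840 ± 716 and 10431 ± 706. In day 3 replicate 3 Jund held 50.9%, against 65.6% and 64.6% in replicates 1 and 2. All shares and sums rest on the merged exon length of each gene, which was 6243 bases in 2 merged exons for Fosb. They depend on that transcript model, which the SD does not cover.

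**Figure D3:**
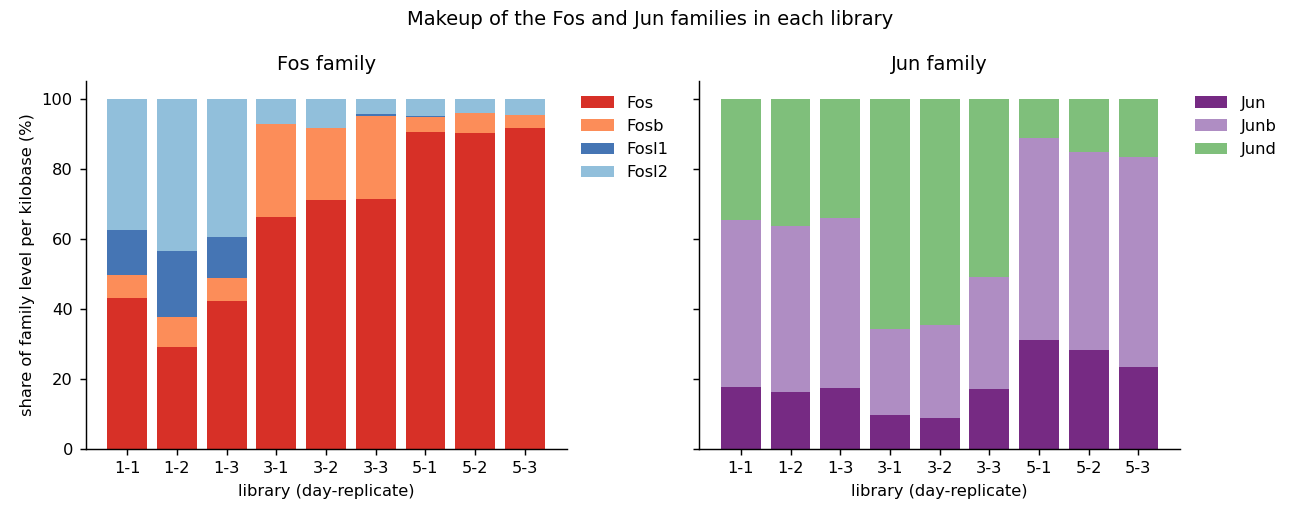
Share (%) of each gene in the summed level per kilobase of its family, in each of the 9 libraries named by day and replicate; the bars of a library add to 100%. Fos takes 29.2 to 43.1% on day 1 and 90.3 to 91.7% on day 5, and Jund takes 50.9 to 65.6% on day 3 against 11.3 to 16.7% on day 5.

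Ratios within a library do not depend on its size factor. They were compared across the days with an exact permutation test of the F statistic over all 1680 assignments, whose smallest possible p was 0.0036, with adjustment over the 5 ratios examined. The log2 ratio of Fos to Fosl2 per kilobase was 0.20, -0.58 and 0.09 on day 1, 3.22, 3.10 and 3.99 on day 3, and 4.17, 4.45 and 4.32 on day 5 (exact permutation p = 0.0036, adjusted p = 0.018). Fos and Fosl2 were near level on day 1 and far apart in each later library. The log2 ratio of Fosb to Fosl1 went from -0.96 ± 0.17 to 7.10 ± 1.11 and 7.44 ± 1.09 (exact permutation p = 0.025, adjusted p = 0.042). That of Egr1 to Fos moved little, from -0.33 ± 0.16 to -0.62 ± 0.28 and -0.07 ± 0.06 (exact permutation p = 0.021, adjusted p = 0.042). Leaving out any library but day 1 replicate 2 or day 3 replicate 1 raised the adjusted p of these 2 ratios to between 0.054 and 0.15. The log2 ratio of Junb to Jun was 1.48 ± 0.05, 1.30 ± 0.35 and 1.08 ± 0.24 and did not pass (exact permutation p = 0.21, adjusted p = 0.26). The summed Fos family to the summed Jun family was at -1.38 ± 0.10, -1.03 ± 0.45 and -1.23 ± 0.26 on the log2 scale (exact permutation p = 0.43, adjusted p = 0.43). After the length and GC correction that sum ratio was higher by 1.01 on day 3 and 0.73 on day 5 than on day 1, with an adjusted p of 0.045 in the exact permutation test.

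The libraries of a day did not vary alike for these genes. On day 3, replicate 3 was the highest of its day for 8 of the 10 genes and for 28 of 36 other immediate early genes (77.8%), against 35.5% of all tested genes. Replicate 2 was the lowest of day 3 for 8 of the 10 and for 72.2% of the other immediate early genes, against 27.2% of all. The highest day 3 library exceeded the lowest 6.32-fold for Fosl1, 4.11-fold for Egr2, 3.86-fold for Atf3, 2.28-fold for Fosb, 2.13-fold for Jun and 1.97-fold for Fos, where the median over 11580 tested genes with a mean of at least 100 was 1.19. Fosl2 varied 1.11-fold, and Jund ran the other way, highest in replicate 1 and lowest in replicate 3. On day 5, replicate 3 was the lowest for 7 of the 10 and for 63.9% of the other immediate early genes, against 41.1% of all. On day 1, replicate 2 was the lowest for 5 of the 10, among them Fos and Egr1, and for 61.1% of the other immediate early genes, against 32% of all. No label describes how these libraries were handled.

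**Figure D4:**
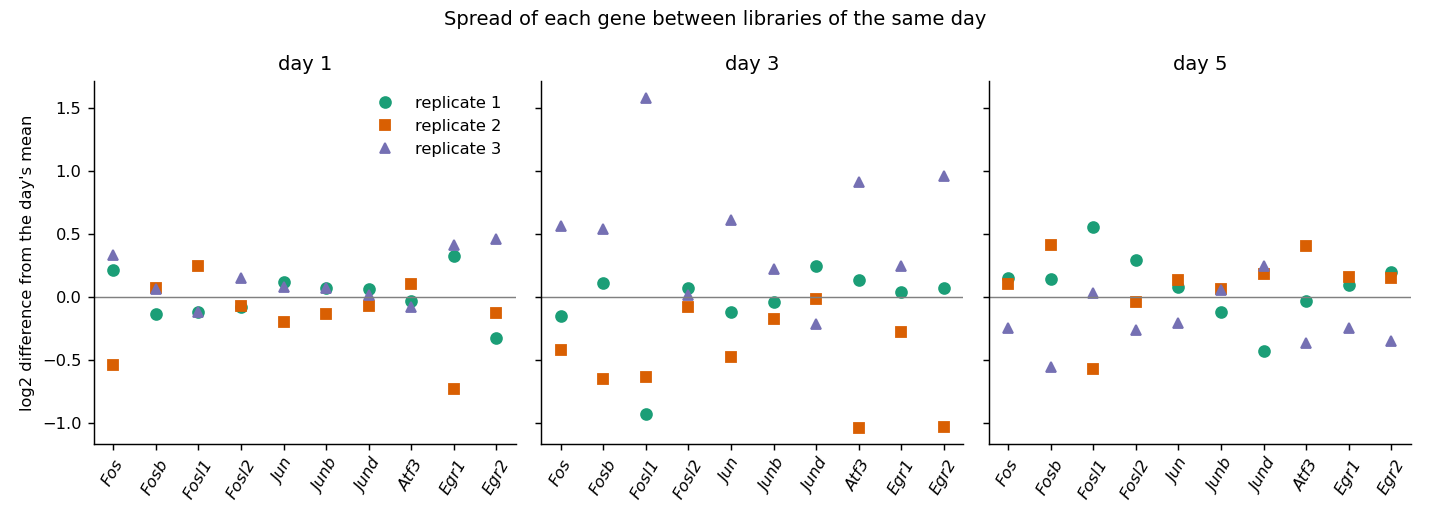
Log2 difference of each library from the mean of its day, for the 10 genes, in 1 panel per day with marker and colour for the replicate. On day 3, replicate 3 lies above 0 for most genes and replicate 2 below it, with Jund reversed.

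Profiles over the 9 libraries were compared by the root mean square difference of log2 values centred on each gene's own mean, over tested genes with a mean of at least 100. Among the 10 genes the closest pairs were Jun with Junb (0.26) and Fos with Egr1 (0.27), and Egr1 was the nearest of all genes to Fos. The genes nearest to Jun were Zfp36, an immediate early gene for an RNA decay protein (0.14), the amino acid transporter gene Slc7a7 (0.21) and Btg2, an antiproliferative immediate early gene (0.23). Zfp36 was at 1630 ± 360, 3983 ± 1202 and 10471 ± 1028 on days 1, 3 and 5. For Junb the nearest were Ift81, Atat1 and Ap3m2 (0.13 each), for Fosl2 Slc25a37 (0.07), for Egr1 Acad10 (0.19) and for Jund Gm17066, Prdx5 and Gm14036 (0.13 each). Fosb (Rec8, 0.52), Atf3 (Gm26532, 0.45), Egr2 (Drc3, 0.56) and Fosl1 (Adamts1, 0.60) had no gene as close.

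The remaining immediate early genes split. Of 36 tested, 16 rose and 8 fell from day 1 to day 3. From day 3 to day 5, 15 rose and 11 fell, and from day 1 to day 5, 20 rose and 13 fell. The medians were 0.24, 0.00 and 0.63. Of all tested genes, 36.1% rose and 37% fell in the first comparison, and 34.8% and 32.4% in the next. In the last the shares were 36.7% and 37.7%. Ier2, an early response gene, was at 1338 ± 124, 8391 ± 670 and 16189 ± 2709, a log2 change of 3.59 (SE 0.13, adjusted p = 8.7e-09) from day 1 to day 5. Ccn2, a matricellular gene, went from 589 ± 84.8 to 1670 ± 416 and 6316 ± 610, and Klf2, a zinc finger factor, from 7.55 ± 7.26 to 98.0 ± 32.6 and 139 ± 15.9. Ptgs2, the inducible cyclooxygenase, went the other way, from 8021 ± 703 to 1742 ± 620 and 530 ± 148, a log2 change of -3.95 (SE 0.25, adjusted p = 2e-07). After the length and GC correction the counts were 13 higher and 16 lower to day 3, 11 and 15 to day 5, and 17 and 16 from day 1 to day 5, so the balance of directions depends on that choice.

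Among 18 kinases and factors that act upstream of these genes, 4 rose and 11 fell from day 1 to day 3. From day 3 to day 5, 5 rose and 6 fell, and from day 1 to day 5, 3 rose and 9 fell. Shares over all tested genes were 36.1% higher and 37% lower in the first comparison, and 34.8% and 32.4% in the next. In the last they were 36.7% and 37.7%, and these shares also stand beside the inhibitors below. After the length and GC correction the counts were 5 and 8, 2 and 10, and 4 and 14, and with quantile normalization 7 rose and 4 fell from day 3 to day 5, so the balance after day 3 depends on the scaling. Srf itself was at 1530, 2117 and 1729 on day 1, at 477, 434 and 559 on day 3, and at 1175, 1084 and 833 on day 5. It was lowest on day 3, with log2 changes of -1.86 (SE 0.16, adjusted p = 3.6e-06) and 1.06 (SE 0.16, adjusted p = 0.00022). Creb1 also was lowest on day 3, at 1428 ± 71.5, 557 ± 56.1 and 766 ± 111. Mapk3, which encodes the kinase ERK1, was highest on day 3, at 1853 ± 230, 5931 ± 431 and 4327 ± 557, and Elk3, an SRF cofactor, went from 1767 ± 83.2 and 1670 ± 175 to 454 ± 25.3 on day 5. Of 14 inhibitors that damp MAP kinase signalling, 3 rose and 7 fell to day 3, 2 rose and 5 fell to day 5, and 3 rose and 9 fell from day 1 to day 5, with 1 and 5, 2 and 8, and 0 and 11 after that correction. Dusp8, a phosphatase, went from 363 ± 29.0 to 183 ± 24.5 and 33.7 ± 10.5, and Spred3 from 399 ± 84.9 to 212 ± 27.9 and 96.2 ± 25.3. Dusp5, a nuclear phosphatase of ERK, was at 1773 ± 249 and 2305 ± 886 before it fell to 518 ± 161 on day 5. Spry4 went from 70.8 ± 30.6 and 41.8 ± 10.9 to 10.3 ± 4.98.

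Of 13 other partners of AP-1 proteins, 10 were tested, of which 1 rose and 5 fell to day 3. From day 3 to day 5, 4 rose and 3 fell, and from day 1 to day 5, 1 rose and 7 fell. The shares of all tested genes in these comparisons were 36.1% and 37%, 34.8% and 32.4%, and 36.7% and 37.7%. After the length and GC correction the counts were 0 and 6, 3 and 4, and 1 and 5. From day 1 to day 5 the 1 that rose was Jdp2, a repressor that pairs with Jun proteins, from 413 ± 148 on day 1 to 969 ± 2.92 on day 5 (log2 change 1.30, SE 0.25, adjusted p = 0.00071), named here after its values were seen. Creb5 fell from 384 ± 68.1 to 85.1 ± 22.3 and 15 ± 4.68. Atf7 was lowest on day 3, at 1145 ± 86.6, 422 ± 43.2 and 870 ± 130, and Batf3 highest then, at 8.13 ± 0.784, 26.0 ± 1.42 and 2.01 ± 0.886. Beside the Egr genes, Egr3 rose like Egr2, from 10.2 ± 2.38 to 39.0 ± 24.1 and 150 ± 52.2 (day 5 against day 1, log2 change 3.70, SE 0.51, adjusted p = 6.1e-05). The Egr corepressor Nab2, itself an Egr target, rose from 261 ± 41.1 to 418 ± 26.9 and was at 527 ± 96.2 on day 5, while its relative Nab1 fell from 3249 ± 71.7 to 1254 ± 74.1 on day 3 and was at 1141 ± 180 on day 5.

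Genes known as AP-1 targets in epithelia or other cells fell for the most part. Of 21 listed, 20 were found by symbol and 17 were tested. Among the 17, 1 rose and 12 fell from day 1 to day 3. From day 3 to day 5, 2 rose and 11 fell, and from day 1 to day 5, 1 rose and 15 fell. Over all tested genes the shares higher and lower were 36.1% and 37%, 34.8% and 32.4%, and 36.7% and 37.7%. The medians of the list were -1.56, -1.01 and -2.77, the last of which does not depend on the value given to Sprr1b. The counts of falls between days 1 and 5 ran from 13 to 15 when 1 library was left out and reached 16 after the length and GC correction. Without the filter on low counts, which kept 20 genes, 1 rose and 10 fell to day 3, with a median of -0.98. From day 1 to day 5, 1 rose and 16 fell there, with a median of -2.38. Krt6a, a keratin of wounded and hyperproliferative epithelium, was at 31711, 36064 and 33027 on day 1, at 5506, 4343 and 5533 on day 3, and at 544, 561 and 613 on day 5. Its log2 change from day 1 to day 5 was -5.87 (SE 0.11, adjusted p = 2.9e-10). Sprr1a, a precursor of the cornified envelope, went from 10182 ± 875 to 2687 ± 722 and 40.2 ± 3.57, and its relative Sprr1b from 169 ± 55.1 to 2 reads on day 3 and none on day 5. From day 1 to day 5 the protease gene Mmp13 was the 1 that rose, from 5 reads in all on day 1 and 12 on day 3 to 60.8 ± 6.83 on day 5. The 1 that rose from day 1 to day 3 was Timp1, at 93.8 ± 13.2, 189 ± 29.6 and 58.4 ± 15.4. The summed Fos family level on day 5 was 4.3 times that of day 1, and the summed Jun family level 3.88 times. In the same comparison 15 of these 17 genes were lower. Whether the listed genes followed the level of any of these factors was not tested.

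**Figure D5:**
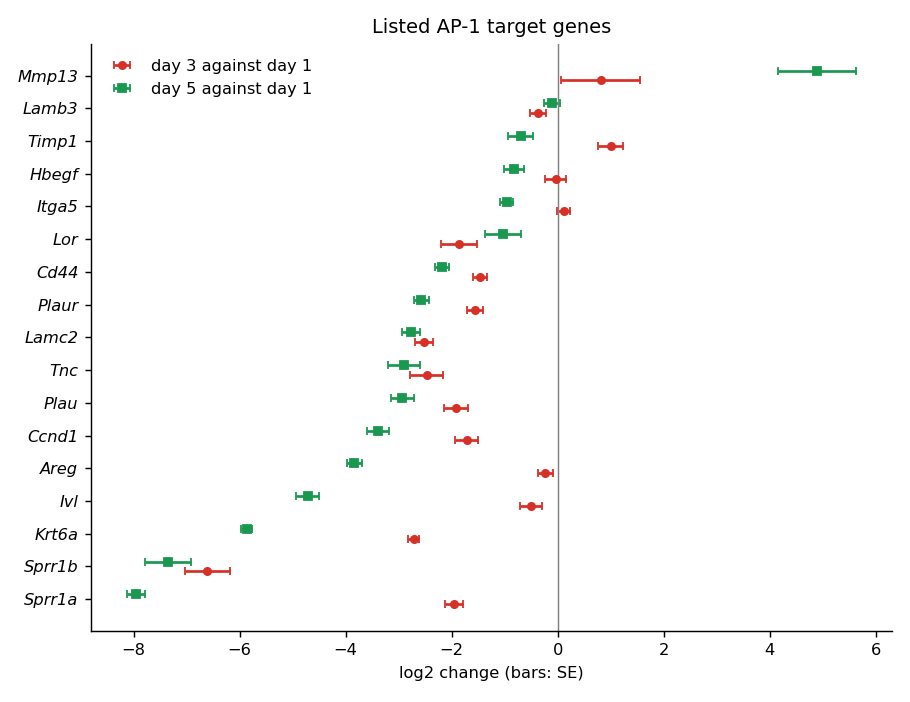
Log2 change (SE bars, limma fit) of the 17 tested AP-1 target genes from day 1 to day 3 (circles) and from day 1 to day 5 (squares), ordered by the latter. Among the squares, Sprr1a lies at -7.95 and Krt6a at -5.87, and Mmp13 alone lies to the right, at 4.89. Among the circles, Timp1 lies at 1.00 (SE 0.23) and Mmp13 at 0.81 (SE 0.74). The value of Sprr1b rests on no read on day 5 and depends on the pseudocount.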

How the data were processed

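RNA of 9 libraries, 3 on each of days 1, 3 and 5, was analysed, grouped by the sample titles. The submitters' processing notes name HISAT2 2.1.0, GRCm39 and DESeq2 1.36.0; the sources used here do not name the counter, annotation or strand setting. The authors deposited 1 table, whose log2 values are each the log2 of reads over a size factor. Of its 57107 lines, 359 repeats were dropped, and 297330 cells of error text, genes without a read, were read as 0. All low values were whole multiples of 1 read within 0.01, so reads were recovered for depth and counting intervals.

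Genes with 10 normalized counts in 3 libraries were tested on log2(normalized count + 1) with limma 3.58.1 in R 4.3.3 (1 mean per day, eBayes with trend, 6 residual degrees of freedom, two-sided, Benjamini-Hochberg over all tested genes at 0.05). Every adjusted p is from this fit unless an exact permutation test or an alternative is named. An alternative was fitted with limma and adjusted on its own. The scripts were tested on simulated data. Lengths, GC content and overlaps came from GENCODE M21 on GRCm38, and promoter windows from RefSeq; a length and GC content was found for 98.4% of tested genes. The members and gene lists were chosen with earlier results of these data known. Named are all 10 members, marker genes, the 4 genes of each list with the largest passing change, and the 3 nearest profiles to each member, with 1 of these genes not reported here. Alternatives covered the pseudocount, filter, scaling, length and GC content, replicate block, library weights, a fit of 2 days and leaving out each library.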

Additional observations from a re-analysis of the deposited data

How the results depend on the processing

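Of 570 alternative values for the changes of the 10 genes between days, 559 kept their direction and their side of the threshold and 11 did not; those 11 stand beside their genes above. One of these reversed, Jund from day 1 to day 5, which was -0.54 after the length and GC correction, and so did the step difference of Fosl2, which was -0.56. That correction shifted the median change of all genes to -0.225 from day 3 to day 5, and its calls there were 4355 higher and 7331 lower, against 6040 and 5624; from day 1 to day 5 they were 5512 and 7486, against 6367 and 6542. The number of genes that passed with a later step above the earlier one, 0 in the reported fit, was 1 with a pseudocount of 8, 1 with quantile normalization, 2 after the length and GC correction and 3 with library weights, and ran from 0 to 3 when 1 library was left out. The summed Fos to Jun ratio, in log2 against day 1, was 1.01 (day 3) and 0.73 (day 5) after that correction, where it passed, and the Egr1 to Fos ratio was -0.37 and 0.17 there, where it did not. Leaving out 1 library, the Fosb to Fosl1 ratio ran from 7.52 to 8.63 (day 3 against day 1) and from 7.77 to 8.73 (day 5 against day 1), and the Egr1 to Fos ratio from -0.38 to -0.12 and from 0.17 to 0.31. Fewer libraries allow fewer assignments, so the exact test has a larger smallest p. In their deviations from the mean of the day, same-numbered libraries had correlations of -0.311 to 0.141, with 2 of 9 over 0.1. Libraries with other numbers had -0.15 to 0.357. With 3 libraries a day such deviations cancel within the day, so these values cannot settle whether the replicate numbers pair the libraries. A fit with the replicate block called 10, 9, 9 and 5 members in the 3 comparisons and the step difference. These were the counts of the reported fit. Of all 17338 tested genes, the fit with the block called 12206, 10979, 12437 and 11744. Depth limits Egr2 on day 1 (13 reads) and Fosl1 on day 5 (7 reads).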

Other observations

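Heat shock genes are another stress-induced group. Of 10 tested, 3 rose and 5 fell from day 1 to day 3, 4 rose and 5 fell from day 3 to day 5, and 3 rose and 7 fell from day 1 to day 5, with medians of -0.59, -0.24 and -0.77. Over all tested genes, 36.1% rose and 37% fell in the first of these comparisons, 34.8% and 32.4% in the next, and 36.7% and 37.7% in the last. From day 3 to day 5 the direction of the list depends on the scaling: with quantile normalization 5 rose and 3 fell, with a median of 0.34, and after the length and GC correction 2 rose and 5 fell, with a median of -0.34. Dnajb1, a co-chaperone of Hsp70, rose from 1703 ± 120 to 2258 ± 138 and 6840 ± 796 (SD, n = 3), with an adjusted p of 5.6e-08 in limma from day 1 to day 5. Hspa1a, an inducible Hsp70, was lowest on day 3, at 2441 ± 287, 594 ± 166 and 1505 ± 281, and Hsph1 likewise, at 3444 ± 271, 782 ± 64.7 and 1150 ± 112. Hspd1, a mitochondrial chaperonin, fell from 16530 ± 1686 to 6098 ± 176 and 3039 ± 69.8. Replicate 3 was the highest of day 3 for 6 of the 10 heat shock genes (60%) and the lowest for 4 of them, against 8 of 10 and 1 of 10 among the AP-1 and Egr genes.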
